A study of Saccharomyces cerevisiae with 12 samples.

Results

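The 5 aldehyde dehydrogenase genes *ALD2*, *ALD3*, *ALD4*, *ALD5* and *ALD6* of *Saccharomyces cerevisiae* were followed through mild heat shock. They are 5 of the 6019 features measured, each represented by 1 probe. They were selected on the measured log2 ratios of *ALD3* in these same arrays, high at 30 min and lower at 60 min. The values of *ALD3* are therefore given as a description with no test. The same holds for *ALD2*, a close copy that lies beside *ALD3* on chromosome XIII and whose cDNA spot may share signal with it.

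Aldehyde dehydrogenases oxidise aldehydes to acids and pass the electrons to NAD or NADP. In yeast growing on glucose, pyruvate is decarboxylated to acetaldehyde, most of which is reduced to ethanol, while a smaller part is oxidised to acetate, the source of cytosolic acetyl-CoA. *ALD6* encodes the main cytosolic enzyme of this step and yields NADPH, *ALD4* the main mitochondrial enzyme, which is repressed by glucose and needed for growth on ethanol, and *ALD5* a minor mitochondrial enzyme. *ALD2* and *ALD3* encode cytosolic NAD-dependent enzymes that act on 3-aminopropanal, a product of polyamine breakdown, to give beta-alanine for pantothenate and coenzyme A, and both are known as stress-responsive, glucose-repressed genes.

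All arrays used wild-type JN54, a MATa strain with mutant *his3*, *leu2*, *ura3*, *trp1* and *lys2* markers carried by heat-shocked and control cells alike. Log-phase cells in YPD medium were moved to 43°C for 60 or 30 min, and control cells stayed at 30°C for the same time. RNA of heat-shocked cells (Cy5) and control cells (Cy3) was hybridized to cDNA arrays in 3 experiments at each time, 6 arrays in all. A value is the log2 ratio of heat-shocked over control cells, so 1 means 2-fold higher and -1 means 2-fold lower.

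The arrays of 60 min had correlations across features of 0.598 to 0.736, and those of 30 min of 0.774 to 0.853. Array medians lay between -0.03 and 0.02. Experiment 3 had the narrowest spread at each time, with a median absolute deviation of 0.416 at 60 min and 0.384 at 30 min, against 0.517 to 0.712 in the other 4 arrays. The chaperone genes *HSP12*, *SSA4* and *HSP26* were above 0 in every array, the lowest value being 1.74, which sets the direction of the ratio. Heat-shocked cells carried Cy5 on every array, so that dye bias and response of a gene cannot be told apart. The authors call the experiments independent, but whether they came from separate cultures is not given in the sources used here. The p-values then measure the spread between these arrays, which may be partly technical. In RNA of a whole culture, fewer cells with a transcript and fewer transcripts per cell cannot be told apart.

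The 5 genes did not move together. The log2 ratio of *ALD3* averaged 0.91 ± 0.83 at 60 min and 2.91 ± 0.76 at 30 min (SD, n = 3 each). *ALD2* had a lower mean at each time, though at 60 min *ALD3* was the higher in only 1 of 3 arrays. The mitochondrial genes went opposite ways at 30 min, where *ALD4* rose 1.90-fold and *ALD5* fell 2.13-fold. Without experiment 2 of 30 min these were 1.44-fold and 1.91-fold, and neither passed the test. *ALD6* fell at both times, 4.60-fold at 60 min (2.72-fold without experiment 2 of 60 min) and 4.12-fold at 30 min.

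**Figure D1:**
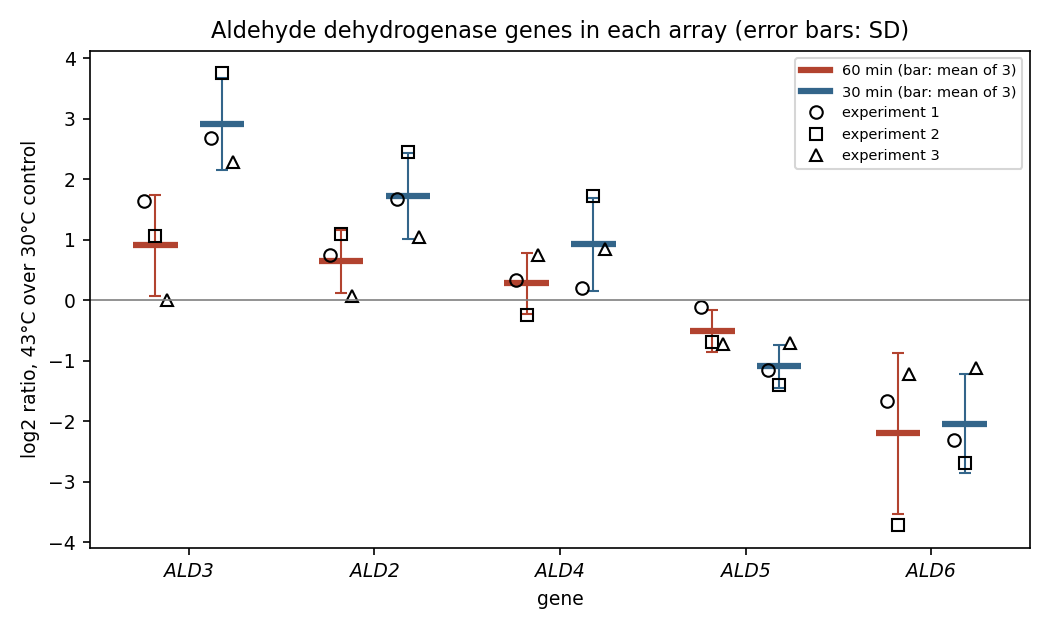
Log2 ratio (heat-shocked over control, y axis) of the 5 aldehyde dehydrogenase genes in each array, with 60 min left of 30 min, 1 marker per experiment, a thick bar at the mean of each time and error bars of 1 SD (n = 3). *ALD3* and *ALD2* lie above 1 in all 3 arrays of 30 min, and *ALD6* lies below -1 in all 6 arrays.

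*ALD3* (YMR169C, chromosome XIII) had log2 ratios of 1.65, 1.07 and 0.00 in experiments 1, 2 and 3 at 60 min, and of 2.69, 3.75 and 2.28 in experiments 1, 2 and 3 at 30 min. All arrays of 60 min lay below all arrays of 30 min, and experiment 3 of 60 min lay at 0. The mean was 1.87-fold at 60 min, the 498th highest of 6019 features, and 7.50-fold at 30 min, the 6th highest. The means differed by -2.002 between 60 and 30 min, and with 1 array left out the mean at 60 min lay between 0.54 (without experiment 1) and 1.36 (without experiment 3). *ALD3* was over 2-fold higher in 2 of 3 experiments at 60 min and in 3 of 3 at 30 min.

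*ALD2* (YMR170C, chromosome XIII) had log2 ratios of 0.75, 1.09 and 0.08 in the 3 experiments at 60 min, and of 1.67, 2.46 and 1.04 at 30 min. The highest array of 60 min, experiment 2, was above the lowest array of 30 min, experiment 3, so the times overlapped. The mean was 0.64 ± 0.52 at 60 min, or 1.56-fold, and 1.73 ± 0.71 at 30 min, or 3.31-fold (SD, n = 3 each). *ALD2* ranked 1025th at 60 min and 43rd at 30 min, and was over 2-fold higher in 1 of 3 experiments at 60 min and in 3 of 3 at 30 min.

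Within each array, *ALD3* minus *ALD2* was 0.89, -0.03 and -0.08 in experiments 1, 2 and 3 at 60 min, and 1.02, 1.29 and 1.23 at 30 min. The gap had a mean of 0.26 ± 0.54 at 60 min, where *ALD3* was the higher in 1 of 3 arrays, and of 1.18 ± 0.15 at 30 min, where it was the higher in 3 of 3 (SD, n = 3 each). The spots of these similar genes thus gave separate values at 30 min and nearly equal ones in 2 arrays at 60 min. How far each spot also took up cDNA of the other gene was not tested.

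*ALD4* (YOR374W, chromosome XV) had log2 ratios of 0.33, -0.25 and 0.75 in the 3 experiments at 60 min, and of 0.20, 1.72 and 0.84 at 30 min. The arrays of both times overlapped, and experiment 2 was the lowest of its time at 60 min and the highest at 30 min. The mean at 60 min was 0.28 ± 0.50 (SD, n = 3), with a 95% interval of -0.37 to 0.93 and an adjusted p = 0.494 by limma. At 30 min the mean was 0.92 ± 0.76 (SD, n = 3), with an interval of 0.27 to 1.57 and an adjusted p = 0.0410 by limma. That call rested on single arrays: without experiment 2 of 30 min the mean was 0.52 (adjusted p = 0.346), and without experiment 3 of 30 min it was 0.96 (adjusted p = 0.111). *ALD4* was over 2-fold higher in 0 of 3 experiments at 60 min and in 1 of 3 at 30 min.

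*ALD5* (YER073W, chromosome V) had log2 ratios of -0.11, -0.69 and -0.72 in the 3 experiments at 60 min, and of -1.16, -1.41 and -0.71 at 30 min. It was below 0 in all 6 arrays, and the times overlapped only through experiment 3, where both values were nearly equal. At 60 min the mean was -0.50 ± 0.35 (SD, n = 3), with a 95% interval of -1.003 to -0.01 and an adjusted p = 0.107 by limma. *ALD5* fell at 30 min, with a mean of -1.09 ± 0.35 (SD, n = 3), an interval of -1.59 to -0.59 and an adjusted p = 0.00593 by limma. The call at 30 min did not hold without experiment 1 of 30 min (-1.06, adjusted p = 0.0553) or experiment 2 of 30 min (-0.93, adjusted p = 0.0825). At 60 min the gene passed the test without experiment 1 of 60 min (-0.70, adjusted p = 0.0471). *ALD5* was over 2-fold lower in 0 of 3 experiments at 60 min and in 2 of 3 at 30 min.

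*ALD6* (YPL061W, chromosome XVI) had log2 ratios of -1.66, -3.72 and -1.23 in the 3 experiments at 60 min, and of -2.31, -2.69 and -1.12 at 30 min. All 6 arrays were over 2-fold lower in heat-shocked cells, and experiment 3 was the least negative at each time. At 60 min the mean was -2.20 ± 1.33 (SD, n = 3), with a 95% interval of -3.16 to -1.25 and an adjusted p = 0.00354 by limma. At 30 min the mean was -2.04 ± 0.82 (SD, n = 3), with an interval of -2.996 to -1.09 and an adjusted p = 0.00661 by limma. *ALD6* was the 125th lowest feature at 60 min and the 116th lowest at 30 min. Without experiment 2 of 60 min the mean at 60 min was -1.44 (adjusted p = 0.0191), and without experiment 3 of 60 min it was -2.69. The call at 60 min was kept in each of the 15 alternatives whose values or fit differ, while that at 30 min did not hold without experiment 1 of 30 min (-1.91, adjusted p = 0.0565) or experiment 2 of 30 min (-1.72, adjusted p = 0.0744).

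Of the 3 genes tested, *ALD6* fell and none rose at 60 min, where 18.2% of all features fell and 15.6% rose. At 30 min *ALD4* rose, in a background of 10.7%, while *ALD5* and *ALD6* fell, in a background of 15.9%. In either direction, 33.8% of all features passed at 60 min and 26.7% at 30 min. By a rule of fold size, over 2-fold in 2 or more of the 3 experiments, *ALD3* was higher and *ALD6* lower at 60 min, against 6.89% and 10.5% of all features. At 30 min *ALD2* and *ALD3* were higher by that rule and *ALD5* and *ALD6* lower, against 4.42% and 10.2% of all features. The family was selected on the values of *ALD3*, and *ALD2* may share its signal. Their calls by this rule are therefore a description, and the shares cannot show whether these genes stand out. The median of all features was 0.01 at 60 min and -0.01 at 30 min.

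**Figure D2:**
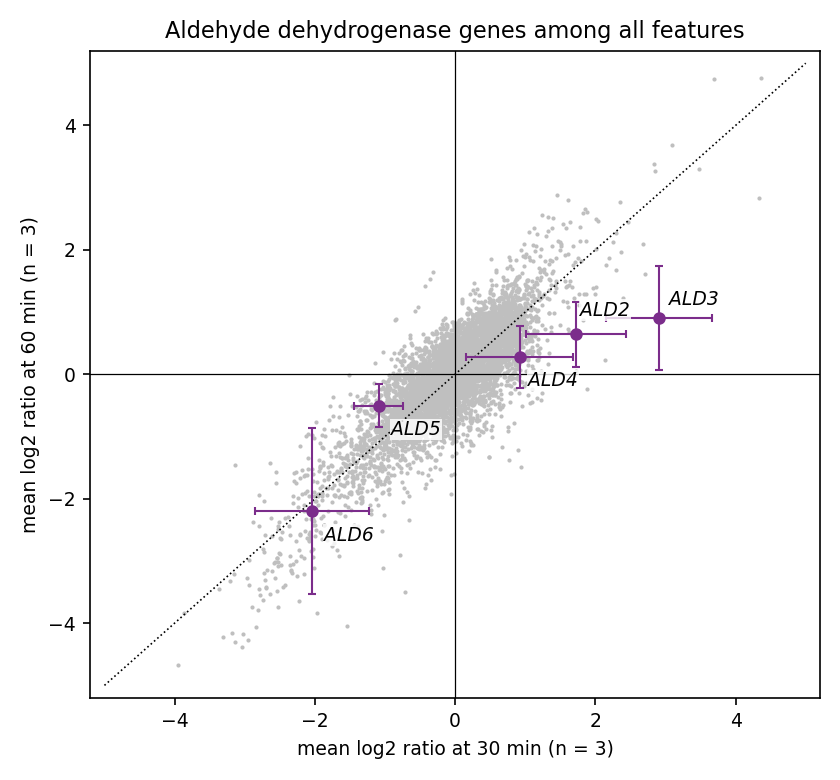
Mean log2 ratios (heat-shocked over control) at both times, 60 and 30 min, of all 6019 features in grey, 60 min on the y axis and 30 min on the x axis, with the 5 aldehyde dehydrogenase genes marked with error bars of 1 SD and a dotted line where both times are equal. *ALD3* is the 498th highest feature at 60 min and the 6th highest at 30 min, and *ALD6* is among the lowest features at both times.

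The change between the times was tested for *ALD4*, *ALD5* and *ALD6*, and none of them passed. By limma, 0% of all features differed between 60 and 30 min after adjustment, and 8.57% did at an unadjusted p under 0.05. The difference of 60 minus 30 min was -0.64 for *ALD4* (95% interval -1.57 to 0.28, adjusted p = 0.664), 0.59 for *ALD5* (-0.12 to 1.29, adjusted p = 0.611) and -0.16 for *ALD6* (-1.51 to 1.19, adjusted p = 0.943), whose sign turned to 0.24 when the arrays were scaled to 1 spread. Each of these intervals includes a change of 2-fold in at least 1 direction.

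By mean ratio the order was the same at both times, with *ALD3* first, then *ALD2*, *ALD4*, *ALD5* and *ALD6*. The neighbours *ALD3* and *ALD2* overlapped at 60 min (gap of 0.26) and at 30 min (1.18), and so did *ALD2* and *ALD4*, with gaps of 0.36 at 60 min and 0.80 at 30 min. *ALD4* and *ALD5* overlapped at 60 min but not at 30 min, where the lowest *ALD4* array (0.20) lay above the highest *ALD5* array (-0.71). *ALD5* and *ALD6* were apart at 60 min, where the lowest *ALD5* array (-0.72) lay above the highest *ALD6* array (-1.23), and overlapped at 30 min.

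The isoenzymes that act on acetaldehyde were also compared within arrays, in 3 pairs, so that a shift of a whole array drops out. The mitochondrial *ALD4* minus the cytosolic *ALD6* was 1.99, 3.47 and 1.98 in experiments 1, 2 and 3 at 60 min, and 2.52, 4.41 and 1.96 at 30 min. Over the 6 arrays this difference had a mean of 2.72 ± 1.01 and was above 0 in 6 of 6 arrays. An exact two-sided permutation test of the signs gave p = 0.03125, also after adjustment over the 3 pairs, which is the smallest that 6 arrays allow. For each pair the test takes the arrays of both times together, so its p does not speak for either time alone. It also counts the 6 arrays as independent. Whether arrays of 60 and 30 min with the same experiment number are linked is not given in the sources used here. If they are, there are fewer independent units and the p-values are too small.

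*ALD5* minus *ALD6* was 1.56, 3.03 and 0.51 in the 3 experiments at 60 min, and 1.16, 1.28 and 0.41 at 30 min. It was above 0 in 6 of 6 arrays, with a mean of 1.32 ± 0.95 (exact permutation p = 0.03125). *ALD4* minus *ALD5*, the difference between the mitochondrial genes, was 0.43, 0.45 and 1.47 at 60 min, and 1.36, 3.13 and 1.55 at 30 min. It too was above 0 in 6 of 6 arrays, with a mean of 1.40 ± 0.99 (exact permutation p = 0.03125). With any 1 array left out the smallest p is 0.0625, and each pair kept its sign in all remaining arrays.

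**Figure D3:**
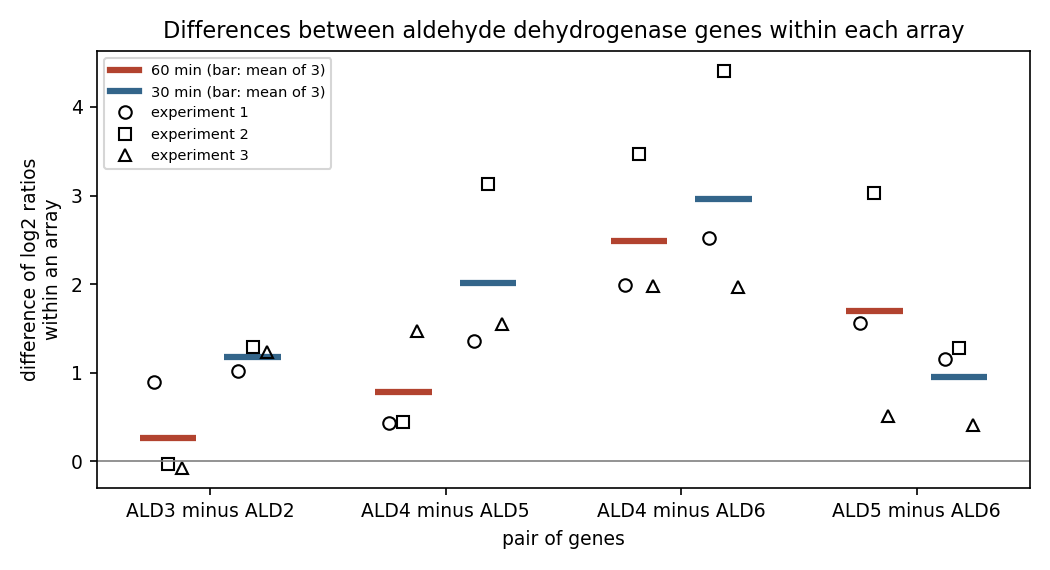
Difference of log2 ratios within each array (y axis) for the gene pairs compared, with 60 min left of 30 min, 1 marker per experiment and a bar at the mean of each time. *ALD4* minus *ALD5*, *ALD4* minus *ALD6* and *ALD5* minus *ALD6* are above 0 in 6 of 6 arrays, while *ALD3* minus *ALD2* is close to 0 in 2 arrays of 60 min.

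The genes with values most like those of *ALD3*, by the root mean square difference of log2 ratios over the 6 arrays among 5355 named genes, were *GRE3* (0.673), *SSA3* (0.724), *PUT1* (0.755), *RTC3* (0.762) and *SPI1* (0.861). *GRE3* encodes an aldose reductase, *SSA3* a stress-induced Hsp70 and *PUT1* a mitochondrial proline oxidase. *SSA3* had means of 1.61 ± 1.10 at 60 min and 2.71 ± 0.69 at 30 min, and *PUT1* of 1.41 ± 0.69 and 2.01 ± 0.70 at the same times (SD, n = 3 each). *ALD2* was 8th in likeness to *ALD3* (0.916), *ALD4* 397th (1.65), *ALD5* 4708th (3.08) and *ALD6* 5264th (4.35). The measure takes level and pattern together over 6 arrays that share 2 times, and it is a description.

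*ALD2* was most like *GLK1*, which encodes glucokinase (0.410, means of 0.87 at 60 min and 1.83 at 30 min), and YCL042W (0.430), which overlaps *GLK1*, so the values of that pair may not be separate. *ALD4* was most like *UGA1*, a GABA transaminase gene (0.327), and *HXT7*, a high-affinity hexose transporter gene (0.374). *ALD5* was most like *GCD6*, which encodes a subunit of translation initiation factor eIF2B (0.118), and YGL039W (0.141). *ALD6* was most like 2 genes of the large ribosomal subunit, *RPL20A* (0.409) and *RPL27A* (0.418). *RPL20A* had means of -1.98 ± 1.84 at 60 min and -2.24 ± 0.70 at 30 min (SD, n = 3 each). Its arrays of 60 min were -0.90, -4.11 and -0.94, so that mean rested largely on experiment 2. *RPL27A* had means of -2.31 ± 1.04 and -2.43 ± 0.68 at the same times (SD, n = 3 each). Ribosomal protein genes of yeast mostly come in near-identical pairs, so each value may hold signal of both copies. With arrays scaled to 1 spread, both genes named were again the most like *ALD2*, *ALD4* and *ALD5*, while for *ALD6* *RPL20A* stayed first, *ARO4* came second and *RPL27A* 4th. By Pearson correlation over the 6 arrays, none of the genes named for *ALD2*, *ALD3*, *ALD5* or *ALD6* was among the top 5, and *HXT7* was among them for *ALD4*.

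Around the aldehyde dehydrogenases, 8 lists with 70 genes in all, *UGA2* being in 2 of them, were set beside them, and their values are mean log2 ratios ± SD (n = 3 each). In these lists 10 genes rose and 19 fell at 60 min, in backgrounds of 15.6% and 18.2%, and 11 rose and 16 fell at 30 min, in backgrounds of 10.7% and 15.9%. The calls at 30 min were the less stable, since 10 of 70 genes passed without experiment 1 or without experiment 2 of 30 min, and 6 of 27 calls were kept in all 15 alternatives, against 14 of 29 calls at 60 min. Between 60 and 30 min 0 of the 70 genes differed by limma, and 9 did at an unadjusted p under 0.05, as did 8.57% of all features. The background shares of each time also stand beside the counts of each list below, and no list was tested as a set.

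**Figure D4:**
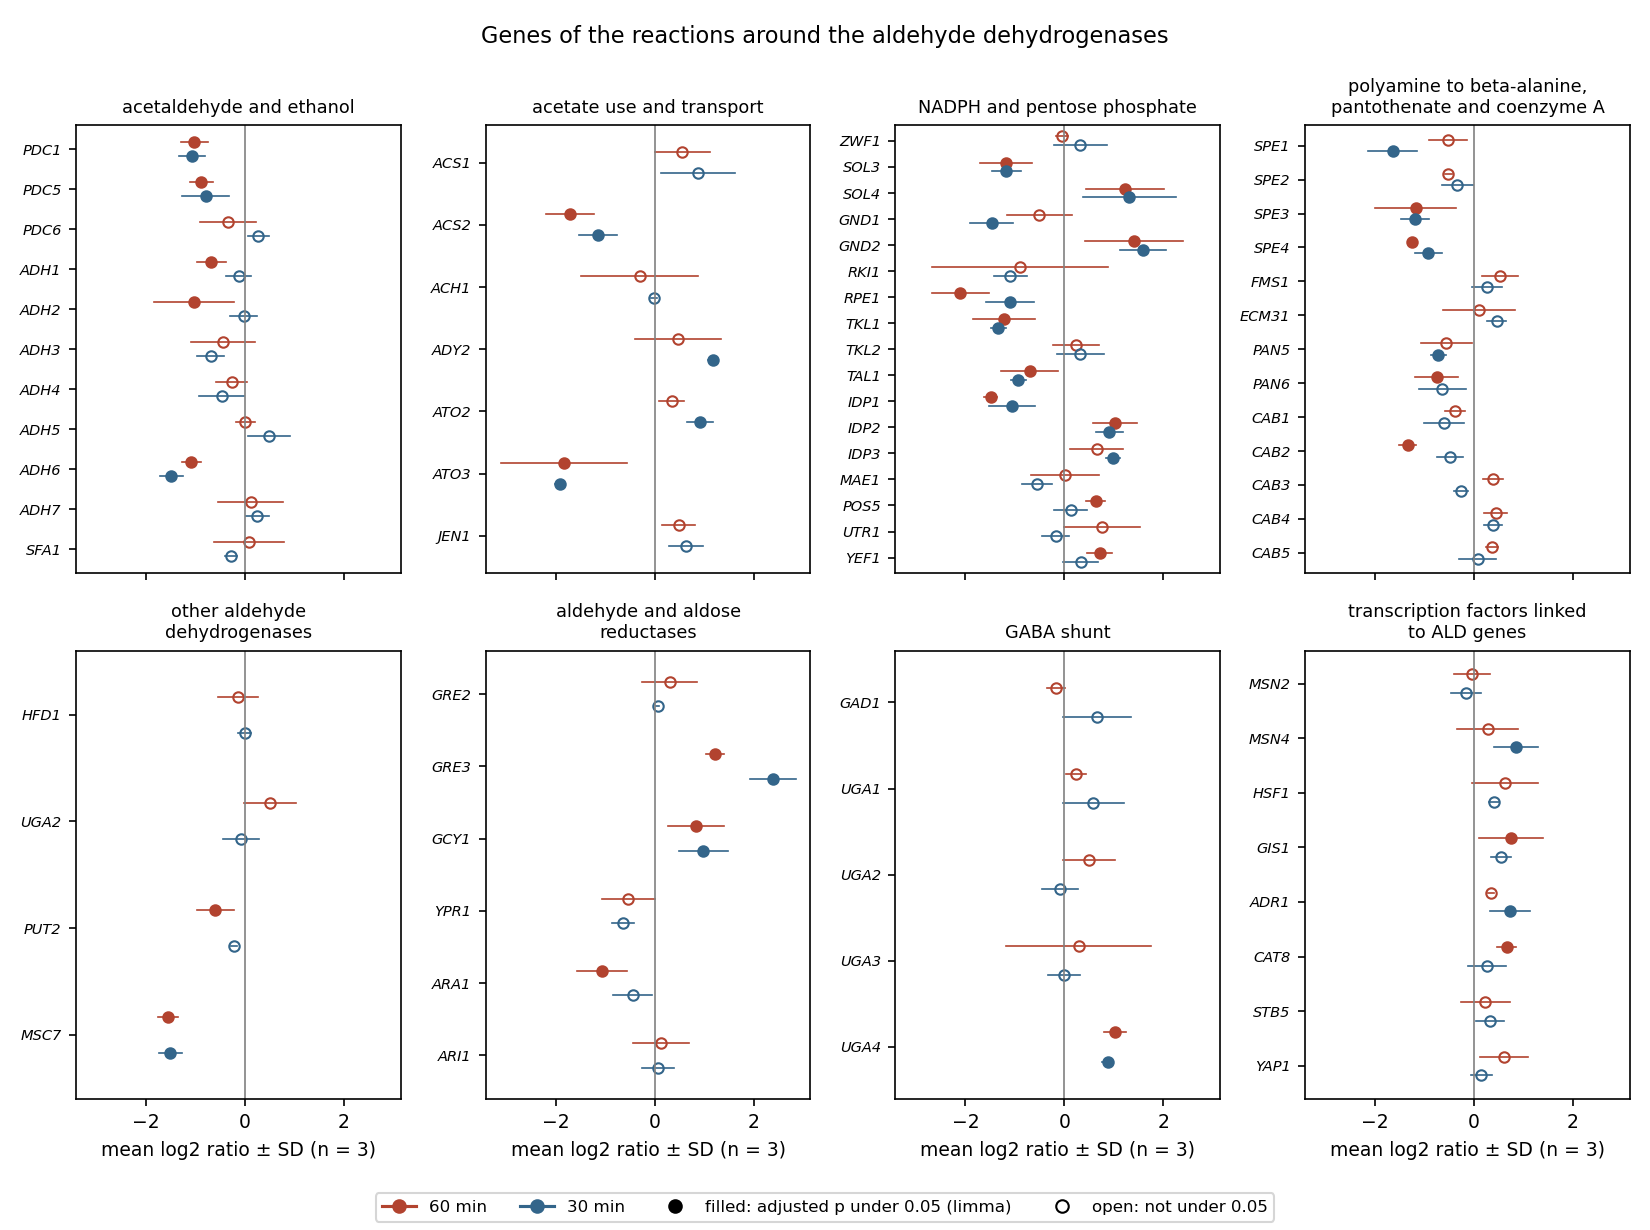
Mean log2 ratio (heat-shocked over control, x axis) of each gene in the 8 lists around the aldehyde dehydrogenases, with 60 min above 30 min for each gene, horizontal lines of 1 SD to either side (n = 3), and filled markers for genes that passed the test at that time. In the list of acetaldehyde and ethanol genes 5 of 11 fell at 60 min and 3 of 11 at 30 min, with none raised. Of all features 18.2% fell and 15.6% rose at 60 min, and 15.9% fell and 10.7% rose at 30 min.

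The genes that make and reduce acetaldehyde stand next to *ALD4*, *ALD5* and *ALD6*. Of 11 such genes 5 fell at 60 min and 3 at 30 min, where 18.2% and 15.9% of all features fell. None rose at either time, where 15.6% and 10.7% of all features did, and the medians were -0.44 and -0.29. *PDC1*, the main pyruvate decarboxylase gene, fell to -1.02 ± 0.27 at 60 min (adjusted p = 0.00472 by limma) and to -1.07 ± 0.27 at 30 min (adjusted p = 0.00477, and 0.0652 without experiment 1 of 30 min). *ADH6*, an NADPH-dependent alcohol dehydrogenase gene, fell to -1.09 ± 0.19 at 60 min and to -1.49 ± 0.23 at 30 min, with adjusted p = 0.0027 and 0.000584 by limma (SD, n = 3 each). *PDC5* also fell at both times, and *ADH1* and *ADH2* at 60 min. The *PDC5* call at 30 min was lost without any 1 array of 30 min (adjusted p up to 0.265), that at 60 min without experiment 2 of 60 min, that of *ADH2* without experiment 1 of 60 min, and that of *ADH1* without any 1 array except experiment 1 of 60 min (adjusted p up to 0.208).

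Downstream of *ALD6*, acetate is turned into acetyl-CoA by the synthetases *ACS1* and *ACS2*. *ACS2*, the gene used on glucose, fell to -1.71 ± 0.49 at 60 min (adjusted p = 0.000544 by limma) and to -1.15 ± 0.38 at 30 min (adjusted p = 0.00677, and 0.0533 or 0.0852 without experiment 1 or 2 of 30 min). *ACS1*, repressed by glucose, had means of 0.56 ± 0.56 at 60 min and 0.87 ± 0.75 at 30 min and did not pass the test (adjusted p = 0.173 and 0.0529). At 30 min it passed in 8 of the 15 alternatives, among them scaled arrays, array weights, the replicate block, print-block centring and 3 of the 6 fits with 1 array left out (experiment 1 of 30 min, and experiment 1 or 2 of 60 min), with adjusted p of 0.0045 to 0.0488. Of the 7 genes of acetate use and transport, *ACS2* and *ATO3* fell at both times, *ATO3* to -1.84 ± 1.28 at 60 min and -1.92 ± 0.10 at 30 min. *ADY2* (1.17 ± 0.10) and *ATO2* (0.91 ± 0.26), which with *ATO3* encode ammonium and acetate transporter family members, rose at 30 min. Among all features 18.2% fell and 15.6% rose at 60 min, and 15.9% fell and 10.7% rose at 30 min. The *ADY2* call was lost without any 1 array of 30 min, and also when experiment 3 of both times was left out, and the *ATO2* call without experiment 1 or 2 of 30 min (adjusted p up to 0.102).

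The other sources of NADPH gave calls in both directions. Of 17 genes of NADPH supply and the pentose phosphate pathway, 5 rose and 5 fell at 60 min, and 4 rose and 6 fell at 30 min. The shares of all features were 15.6% and 18.2% at 60 min, and 10.7% and 15.9% at 30 min. Phosphogluconate dehydrogenase has 2 genes, of which the minor *GND2* rose to 1.41 ± 0.99 at 60 min (adjusted p = 0.00897 by limma) and 1.59 ± 0.47 at 30 min (adjusted p = 0.00627, and 0.0721 without experiment 2 of 30 min). The major gene *GND1* had a mean of -0.50 ± 0.65 at 60 min (adjusted p = 0.173) and fell to -1.47 ± 0.42 at 30 min (adjusted p = 0.00324, and 0.0514 without experiment 3 of both times). Besides *GND2*, *SOL4* and *IDP2* rose at both times, *POS5* and *YEF1* at 60 min and *IDP3* at 30 min, each call being lost in 1 to 9 of the 15 alternatives, with adjusted p up to 0.219. *SOL3* and *TAL1* fell at both times and lost each call in 1 to 8 alternatives, with adjusted p up to 0.222. *RPE1* and *IDP1*, for ribulose phosphate epimerase and mitochondrial isocitrate dehydrogenase, fell to -2.10 ± 0.58 and -1.49 ± 0.13 at 60 min, and their calls at 30 min were lost without experiment 1 of 30 min (adjusted p = 0.0821 or 0.132 for *RPE1* without experiment 1 or 2, and 0.0932 for *IDP1*). *TKL1*, the transketolase gene, fell to -1.23 ± 0.62 at 60 min and to -1.34 ± 0.15 at 30 min (adjusted p = 0.00411 and 0.00331 by limma). *ZWF1*, whose enzyme opens the pathway, had means of -0.05 ± 0.12 at 60 min and 0.32 ± 0.53 at 30 min (adjusted p = 0.888 and 0.316).

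*ALD2* and *ALD3* take their substrate from polyamine breakdown. Of all features 15.6% rose and 18.2% fell at 60 min, and 10.7% rose and 15.9% fell at 30 min. Of 13 genes from polyamine synthesis to coenzyme A none rose and 4 fell at each time. At 60 min these were *CAB2* (-1.34 ± 0.17, for a step of coenzyme A synthesis), *SPE4* (-1.25 ± 0.04, spermine synthase), *SPE3* (-1.18 ± 0.82, spermidine synthase) and *PAN6* (-0.76 ± 0.44, pantothenate synthase). At 30 min they were *SPE1* (-1.65 ± 0.49, ornithine decarboxylase), *SPE3* (-1.20 ± 0.28), *SPE4* (-0.93 ± 0.27) and *PAN5* (-0.72 ± 0.15). The calls of *SPE3*, *SPE4* and *PAN5* at 30 min were lost without experiment 1 or experiment 2 of 30 min, and those of *SPE3* and *PAN6* at 60 min without experiment 2 of 60 min, with adjusted p up to 0.23. The *PAN5* call was also lost without experiment 3 of 30 min, and the *PAN6* call was lost in 7 of the 15 alternatives. *FMS1*, the polyamine oxidase gene that yields 3-aminopropanal, had means of 0.52 ± 0.36 at 60 min and 0.27 ± 0.30 at 30 min and passed at neither time (adjusted p = 0.0933 and 0.384).

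Of 4 other aldehyde dehydrogenase genes, *MSC7* fell to -1.56 ± 0.20 at 60 min and -1.51 ± 0.23 at 30 min (adjusted p = 0.000315 and 0.000564 by limma). *PUT2*, of proline breakdown, passed at 60 min with -0.60 ± 0.37 and lost that call in 11 of 15 alternatives, among them each array left out in turn (adjusted p up to 0.214). *HFD1* and *UGA2*, for fatty aldehyde and succinate semialdehyde dehydrogenase, passed at neither time. Of 6 aldehyde and aldose reductase genes, *GRE3* rose to 1.22 ± 0.18 at 60 min and 2.39 ± 0.46 at 30 min (adjusted p = 0.00253 and 9.59e-05 by limma), both kept in all alternatives. *GCY1* rose at both times, with calls lost without experiment 1 or 2 of the time in question (adjusted p up to 0.206). Its call at 60 min was lost in 6 of the 15 alternatives. *ARA1* fell to -1.07 ± 0.51 at 60 min. Beside both lists stand the shares of all features, 18.2% lower and 15.6% higher at 60 min, and 15.9% lower and 10.7% higher at 30 min.

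Of all features 15.6% rose and 18.2% fell at 60 min, and 10.7% rose and 15.9% fell at 30 min. No gene of the GABA shunt or transcription factor list fell at either time. In the GABA shunt, 1 of 5 genes rose at each time, the GABA permease gene *UGA4*, with 1.02 ± 0.23 at 60 min and 0.87 ± 0.12 at 30 min (adjusted p = 0.00343 and 0.00978 by limma). Its call at 30 min was lost without any 1 array of 30 min (adjusted p up to 0.0817). Of 8 genes for transcription factors that act on stress-responsive or glucose-repressed genes, *CAT8* (0.66 ± 0.18) and *GIS1* (0.74 ± 0.64) passed at 60 min, and *MSN4* (0.85 ± 0.44) and *ADR1* (0.73 ± 0.41) at 30 min. None of these 4 calls was kept in all alternatives. That of *CAT8* was lost without any 1 array (adjusted p up to 0.542), that of *GIS1* without any 1 array except experiment 2 of 60 min (up to 0.504), that of *MSN4* without any 1 array of 30 min (up to 0.207) and that of *ADR1* without experiment 2 or 3 of 30 min (up to 0.211). *MSN2* had means of -0.05 ± 0.36 at 60 min and -0.16 ± 0.30 at 30 min (adjusted p = 0.886 and 0.613).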

How the data were processed

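Wild-type JN54 cells were compared with their own 30°C controls at 60 and 30 min of 43°C. The deposited values are log2 ratios of Cy5 over Cy3, which the authors normalized with negative control spots. Each array was scanned at high and low laser power, and since the 2 scans hold identical values each array counted once. Background subtraction and the log base are not given in the sources used here. The base was settled from the values: repeated values within an array differ by log2 of ratios of small whole numbers in 494 of 682 cases, against 0 for natural logarithms and 9 for log10. Spot intensities and dye swaps were not analysed here.

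Of 6912 probes 6162 had values. Identical probes (78 groups) counted once and distinct probes of 18 genes were averaged, which left 6019 features, 5376 with a symbol. A minimum of 2 values at each time removed 0 features. All 5446 named probes matched RefSeq by Entrez ID. Each time's mean was tested against 0, and 60 against 30 min, in 1 limma model (limma 3.58.1, R 4.3.3, 4 residual and 6.76 prior degrees of freedom). Adjustment followed Benjamini and Hochberg over all features, at 0.05. Within-array differences were tested by an exact permutation of signs. The fit was tested on simulated data. A fold rule, over 2-fold in 2 or more of the 3 experiments, was applied beside it.

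The genes named are the 5 members, up to 4 genes of each list with the largest mean among those that passed, all genes of a count of 5 or fewer, the 5 genes most like *ALD3* and the 2 most like each other member, and 3 chaperone genes. Genes named with values that missed the test, or outside this rule, were chosen after their values were seen. The members and lists were chosen with earlier results of these data known. The alternatives were median-centred arrays, arrays scaled to 1 spread, robust empirical Bayes, each time fitted alone, array weights, every probe apart, the replicate block, other fold rules and each array left out, with print-block centring and leaving out experiment 3 of both times added after the data were seen. The low power scan, also planned, holds the same values and is left out of every count of alternatives, 15 for each time's tests. No positions are given, since the array's build is not named in the sources used here.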

Additional observations from a re-analysis of the deposited data

Results flagged for a closer look

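*CAB3*, which encodes a subunit of the decarboxylase of coenzyme A synthesis and belongs to the list that leads from polyamines to coenzyme A, lay on opposite sides of 0 at the 2 times. Its log2 ratios were 0.60, 0.22 and 0.32 in experiments 1, 2 and 3 at 60 min, and -0.35, -0.33 and -0.09 at 30 min. The means were 0.38 ± 0.20 at 60 min and -0.26 ± 0.14 at 30 min (SD, n = 3 each), a difference of 0.64. The limma test of this difference gave an adjusted p = 0.566 over all features, so it did not pass.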

How the results depend on the processing

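Of 307 alternative values, 252 stayed within limits, which were the same direction and side of the threshold for a test, a factor of 1.5 for a count, and 1 SD between arrays for *ALD2* and *ALD3*. Part of this tally was fixed in advance. For *ALD2* and *ALD3* several alternatives leave the mean as it is, and leaving out 1 of 3 arrays cannot move a mean by 1 SD. The pairs cannot pass with 1 array left out. The tally is therefore no measure of how stable the results are. The count of features called was 1607 at 30 min, and it became 2721 with each time fitted alone, 3297 with array weights, 772 without experiment 3 of both times and 549 to 2257 with 1 array left out. At 60 min it was 2037, and 1270 with each time fitted alone. Between 60 and 30 min, 0 features were called, against 1 with the replicate block and 0 to 2 with 1 array left out. The replicate block used the experiment numbers, whose arrays had correlations of their deviations of -0.0425, 0.125 and 0.353, so experiments with 1 number were not treated as pairs, and it changed no call of the 3 tested members. By the 2-fold rule 879 features passed at 30 min and 1045 at 60 min, against 455 and 457 when all 3 experiments were required, and 525 to 738 and 533 to 875 with 1 array left out.

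With 1 array left out, the means ranged from 0.52 to 1.28 for *ALD4*, from -1.28 to -0.93 for *ALD5* and from -2.50 to -1.72 for *ALD6* at 30 min, and from 0.04 to 0.54 for *ALD4*, from -0.70 to -0.40 for *ALD5* and from -2.69 to -1.44 for *ALD6* at 60 min. For *ALD3* they ranged from 0.54 to 1.36 and for *ALD2* from 0.42 to 0.92 at 60 min. Without experiment 3 of both times *ALD4* at 30 min was 0.96 (adjusted p = 0.136). With print-block centring *ALD5* at 60 min passed (-0.63, adjusted p = 0.0251) and *ALD4* at 60 min changed sign (-0.041, adjusted p = 0.916). The *ALD6* difference of 60 minus 30 min became 0.24 with scaled arrays, 0.37 with array weights and -0.65 to 0.60 with 1 array left out. The pairs ranged from 1.05 to 1.59 for *ALD4* minus *ALD5*, 2.39 to 2.87 for *ALD4* minus *ALD6* and 0.98 to 1.51 for *ALD5* minus *ALD6*, at p = 0.0625 by the exact permutation test of 5 arrays. Of the list genes 27 were called at 30 min (42 with array weights, 17 without experiment 3 of both times, 10 to 35 with 1 array left out) and 29 at 60 min (17, 19 and 20 to 24 in the same order). Of the 5 genes most like *ALD3*, 4 were shared with scaled arrays and 0 with Pearson correlation. The cause of these changes was not tested. The number of arrays limits the precision, and signal over background was not analysed here.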

Other observations

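The genes on either side of the *ALD2* and *ALD3* pair did not share its values. *EAR1*, which lies beyond *ALD2* and encodes a factor of endosomal sorting, had log2 ratios of 0.28, -1.45 and 0.01 in experiments 1, 2 and 3 at 60 min, and of -0.30, -0.70 and -0.42 at 30 min. *CEP3*, which lies beyond *ALD3* and encodes a kinetochore protein, had -0.91, -0.79 and -0.63 at 60 min, and -0.26, -0.06 and -0.41 at 30 min. At 60 min *CEP3* fell, with a mean of -0.77 ± 0.14 (adjusted p = 0.0127 by limma), a call lost in 3 of the 15 alternatives. At 30 min both were below 0 in all 3 arrays, where *ALD2* and *ALD3* were above 1, with means of -0.47 ± 0.21 for *EAR1* and -0.24 ± 0.17 for *CEP3* (SD, n = 3 each). *GDH1*, a glutamate dehydrogenase gene beside *ALD4*, fell to -2.42 ± 0.46 at 60 min and -1.45 ± 0.43 at 30 min (adjusted p = 7.85e-05 and 0.00206 by limma), in arrays where *ALD4* had means of 0.28 and 0.92. *NUD1*, beside *ALD4*, and YPL062W, beside *ALD6*, were not among the named features. At 60 min 18.2% of all features fell and 15.6% rose, and at 30 min 15.9% fell. Of the other neighbours, *RPS24A* and *MFM1* fell at both times. Of the members beside them, *ALD6* also fell at both times, while *ALD5* passed the test at 30 min only. *RPS24A*, a ribosomal protein gene beside *ALD5*, fell to -1.87 ± 0.18 at 60 min and -1.40 ± 0.73 at 30 min (adjusted p = 0.000522 and 0.00382 by limma, the call at 30 min being lost without experiment 1 of 30 min, adjusted p = 0.053). *MFM1*, which encodes a mitochondrial magnesium transporter beside *ALD6*, fell to -1.01 ± 0.16 at 60 min and -0.91 ± 0.71 at 30 min (adjusted p = 0.0135 and 0.0264 by limma, with the call at 30 min gone when experiment 1 or 2 of 30 min was left out, adjusted p up to 0.232). *VTC1*, on the other side of *ALD5*, rose to 0.97 ± 0.55 at 60 min (adjusted p = 0.0129 by limma, a call lost without experiment 1 of 60 min and with print-block centring at adjusted p of 0.0582 to 0.222) and had 0.18 ± 0.32 at 30 min. The order of genes was taken from RefSeq.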
